A study of Homo sapiens with 9 samples.

Results

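Matrix metalloproteinases (MMP), the secreted ADAMTS proteases and the tissue inhibitors of metalloproteinases (TIMP) were described in TC-32, a human Ewing sarcoma cell line. Members were all genes of the deposited tables whose symbol is MMP, ADAMTS or TIMP followed by the number of a family member (also MMP23A and MMP23B). The rule found 47 members among 58381 genes: 24 MMP, 19 ADAMTS and 4 TIMP genes. Of these, 28 passed a filter on low counts (13 MMP, 11 ADAMTS and 4 TIMP genes) and entered the tests.

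The study asked how added ETS1, an ETS family transcription factor, alters gene expression while the fusion oncoprotein EWSR1::FLI1 of these cells is present. RNA-seq was made from 3 groups of 3 libraries each: RFP cells, which carry the lentiviral pLOC vector with a red fluorescent protein, ETS1-Low cells and ETS1-High cells, both carrying an ETS1 cDNA in pLOC, with less ETS1 in the former. All groups share the TC-32 background and, per the labels' protocols, transduced cells were selected with puromycin and sorted as single cells. The labels do not give how many clones stand behind each group or whether the RFP cells were a clone, so clone and ETS1 level cannot be told apart, and nothing states that the libraries of a group were separate cultures, so p-values measure only the spread between these libraries, which may be technical.

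Total expected counts per library ran from 39484704 to 46654734. ETS1 itself had 2.00 ± 0.174 CPM (counts scaled to library size, with TMM factors) in RFP, 10.6 ± 0.298 in ETS1-Low and 19.1 ± 0.806 in ETS1-High (SD, n = 3 for every value given with ±), which follows the labels. All 9 Ewing sarcoma markers examined were expressed, with summed CPM of 2500 to 2590 in RFP, 3800 to 3850 in ETS1-Low and 3810 to 3850 in ETS1-High. Most of each sum was CCND1, with 1550 CPM in RFP, 2520 in ETS1-Low and 2500 in ETS1-High. In the same order NR0B1 had 335, 417 and 369 CPM, and LIPI had 19.4, 61.2 and 60.5. Summed CPM of 10 fibroblast markers was 360 to 393, 397 to 403 and 533 to 570 in the same order. The markers did not move together: COL3A1 went from 176 to 342 and 450 CPM, and LUM from 0 counts in RFP and ETS1-Low to at most 19 in ETS1-High. THY1 went from 75.7 to 5.07 and 12.7 CPM, PDGFRB from 74.2 to 20.5 and 26.0 and PDGFRA from 12.8 to 3.72 and 2.95, while COL1A2 never exceeded 1 count. Summed CPM of 5 endothelial markers was 45.8 to 48.6 in RFP, 3.78 to 4.15 in ETS1-Low and 5.35 to 6.14 in ETS1-High. Nearly all of the RFP sum was KDR, a VEGF receptor, with 44.7 CPM in RFP, 0.222 in ETS1-Low and 0.472 in ETS1-High. VWF, with at most 10 counts in RFP, was at 0 in both ETS1 groups. These markers did not move together either: PECAM1 rose from 1.70 to 3.69 and 5.16 CPM and was most of the sum in both ETS1 groups. CDH5 had 0.084, 0.0495 and 0.123 CPM in the same order. Epithelial markers summed to 78.5 to 82.8, 157 to 166 and 111 to 112 CPM, mostly KRT18, and leukocyte markers to at most 3.54 CPM, with CD3E at 0 throughout. The part of these marker differences in the results was not tested. In bulk RNA, fewer cells that express a gene and less RNA per cell cannot be told apart.

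MMPs are zinc-dependent endopeptidases made as inactive precursors, and most are secreted while a few are anchored in the cell membrane. ADAMTS enzymes are secreted relatives that bind the matrix through thrombospondin repeats and cleave proteoglycans, trim procollagens or act in the assembly of fibrillin microfibrils. TIMPs bind the active site of these enzymes, and the balance of enzyme and inhibitor sets how fast matrix turns over. ETS and AP-1 sites lie side by side in the promoters of several MMP genes, and ETS1 is known as an activator of such genes in stromal and endothelial cells.

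Promoters of members that carry the results are printed first, so that the sequence can be read beside the values. They are RefSeq promoters (GRCh38.p14) from 250 bases before to 50 bases after the annotated start, which matched 27 of the 47 members. TIMP3, ADAMTS7, ADAMTS6 and ADAMTS10 are the members with an entry, a mean of at least 1 CPM in RFP or ETS1-High and the largest changes between these groups. MMP10 was added after its values were seen, since it was highest in ETS1-Low. They lie at chr22:32801455-32801754 (TIMP3, plus strand), chr15:78811415-78811714 (ADAMTS7, minus), chr5:65481871-65482170 (ADAMTS6, minus), chr19:8610666-8610965 (ADAMTS10, minus) and chr11:102780579-102780878 (MMP10, minus). Capitals mark each GGAA, the core that ETS proteins bind, or its complement TTCC, and in MMP10 also the AP-1 match TGAATCA, whose first base lies 67 bases before the start.
TIMP3: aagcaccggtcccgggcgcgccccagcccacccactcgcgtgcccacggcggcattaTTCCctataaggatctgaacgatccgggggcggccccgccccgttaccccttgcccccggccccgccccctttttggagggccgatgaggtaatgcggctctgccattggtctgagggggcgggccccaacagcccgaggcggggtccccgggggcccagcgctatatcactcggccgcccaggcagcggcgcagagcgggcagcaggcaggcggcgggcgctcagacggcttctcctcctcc
ADAMTS7: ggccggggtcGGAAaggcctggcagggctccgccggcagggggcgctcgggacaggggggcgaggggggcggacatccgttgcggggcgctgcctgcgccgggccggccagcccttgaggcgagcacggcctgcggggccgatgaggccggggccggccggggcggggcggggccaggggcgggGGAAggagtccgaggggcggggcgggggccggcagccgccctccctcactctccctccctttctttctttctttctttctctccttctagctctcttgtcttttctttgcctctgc
ADAMTS6: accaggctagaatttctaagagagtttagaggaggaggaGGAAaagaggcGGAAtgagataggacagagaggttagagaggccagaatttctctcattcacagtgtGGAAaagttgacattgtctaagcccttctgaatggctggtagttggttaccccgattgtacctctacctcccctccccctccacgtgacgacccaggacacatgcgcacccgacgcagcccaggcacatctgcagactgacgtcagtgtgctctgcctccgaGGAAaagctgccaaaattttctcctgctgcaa
ADAMTS10: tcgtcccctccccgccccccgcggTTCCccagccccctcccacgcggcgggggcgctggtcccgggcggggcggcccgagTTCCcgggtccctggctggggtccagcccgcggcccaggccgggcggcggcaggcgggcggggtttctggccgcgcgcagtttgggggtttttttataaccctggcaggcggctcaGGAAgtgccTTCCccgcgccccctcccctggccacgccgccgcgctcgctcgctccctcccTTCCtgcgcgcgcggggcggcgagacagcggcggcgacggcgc
MMP10: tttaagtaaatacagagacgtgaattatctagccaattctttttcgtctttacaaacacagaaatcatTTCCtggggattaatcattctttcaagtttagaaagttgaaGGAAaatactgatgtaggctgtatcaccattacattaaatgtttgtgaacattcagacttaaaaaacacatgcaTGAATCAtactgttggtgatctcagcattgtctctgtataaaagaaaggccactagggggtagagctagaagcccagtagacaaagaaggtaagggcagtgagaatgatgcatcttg

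GGAA was found in all 27 member promoters, with a median of 3 matches, against 95.5% of all 35116 promoters of this length, whose median was also 3. The TIMP3 promoter holds 1 match, ADAMTS7 and MMP10 hold 2, ADAMTS6 holds 4 and ADAMTS10 holds 5. The longer ETS site CCGGAAGT was in none of the 27 and in 4.14% of all promoters. GGAA in tandem (GGAAGGAA, which contains GGAA matches), the form of repeat bound by EWSR1::FLI1, was in 2 of 27, MMP14 and TIMP1, against 3.67% of all promoters. The AP-1 site TGANTCA was in 4 of 27 (ADAMTS12, MMP10, MMP20 and MMP7) against 7.71%, and the RUNX site TGTGGT in 4 of 27 (ADAMTS17, MMP14, MMP23B and TIMP1) against 13.1%. Both strands were searched.

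Most of the members' message came from few genes. On the FPKM scale, which divides by gene length, TIMP1 ranked first in every group, with 107 ± 2.36 FPKM in RFP, 95.1 ± 2.40 in ETS1-Low and 78.6 ± 3.50 in ETS1-High. MMP2, the secreted gelatinase A, ranked next, with 53.6 ± 1.78, 29.8 ± 2.31 and 74.4 ± 2.43 FPKM. ADAMTS10 ranked 3 in RFP with 30.5 ± 0.815 FPKM and 5 in both ETS1 groups, with 11.3 ± 0.301 in ETS1-Low and 9.75 ± 0.617 in ETS1-High. MMP14 and TIMP2 made up the rest of the top 5 in each group. MMP2, MMP14, TIMP1 and TIMP2 together held 72.8% to 73.5% of the members' summed FPKM in RFP, 80.0% to 81.1% in ETS1-Low and 83.6% to 85.6% in ETS1-High.

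**Figure D1:**
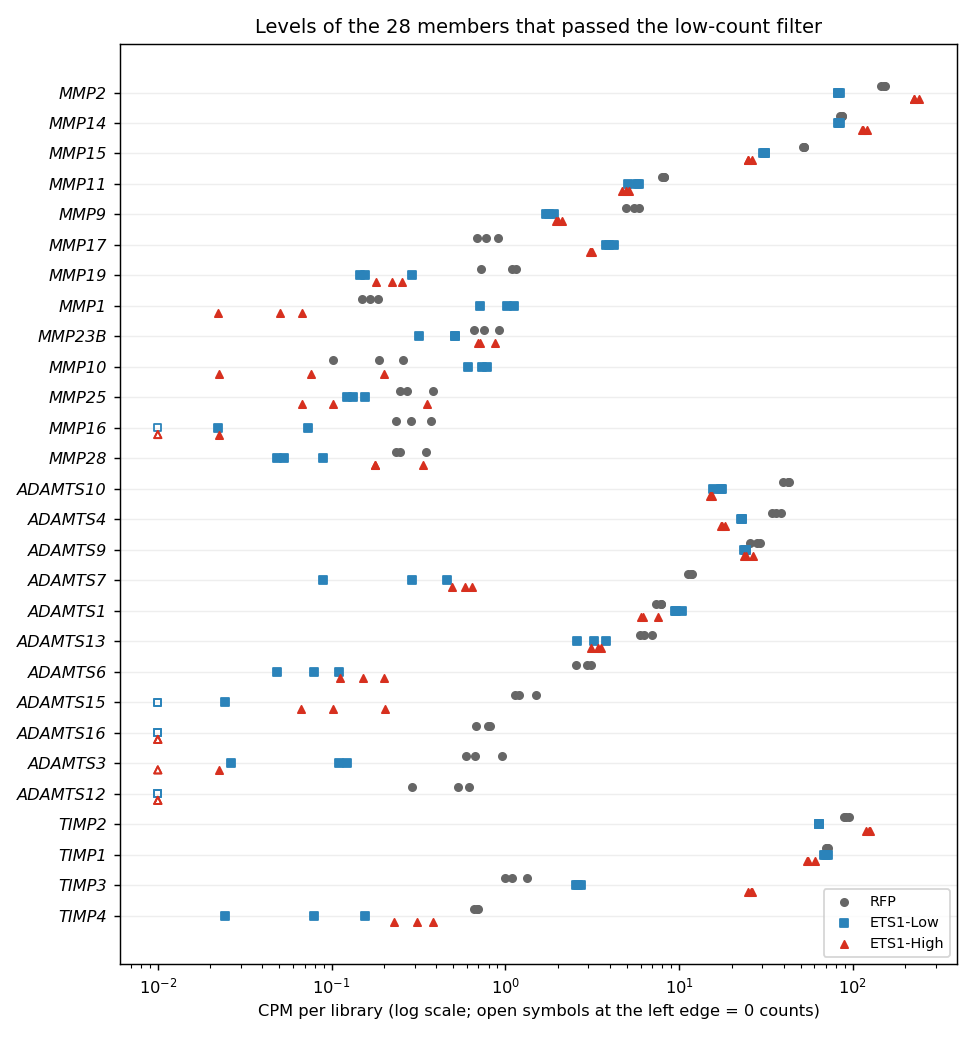
CPM of each tested member in each of the 9 libraries on a log axis, grouped by family, with colours for RFP, ETS1-Low and ETS1-High and open symbols at 0.01 for libraries with 0 counts. MMP2 spans 81.5 to 241 CPM, whereas ADAMTS12 and ADAMTS16 have 0 counts in all ETS1-Low and ETS1-High libraries.

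At an adjusted p under 0.05 (edgeR quasi-likelihood test, Benjamini-Hochberg over 17235 genes), 24 of the 28 tested members differed between ETS1-High and RFP. Only 5 were higher, where 37.0% of all genes tested were called higher, and 19 were lower, where 37.2% of all genes were. With a change of at least 2-fold as well, 2 were higher (9.64% of all genes) and 14 lower (11.4% of all genes). The median log2 fold change of the tested members was -0.98, against -0.01 over all genes. The 28 include 11 members that passed the filter in the libraries of 1 group only, 9 of them in RFP and 2 in ETS1-Low. The latter are MMP1 and MMP10, and the former are MMP16, MMP19, MMP25, MMP28 and 5 ADAMTS genes named below. For these 11 a difference is partly set by how they entered the test, and the counts and median over the 28 rest on them. Among the 15 that passed in every library of all groups, 5 were higher and 9 lower, 2 and 4 of them by at least 2-fold, and the median was -0.23.

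Between ETS1-Low and RFP, 26 members were called, 5 higher (37.9% of all genes) and 21 lower (36.2%). At 2-fold or more, 4 were higher (8.47% of all genes) and 13 lower (12.2%). The members' median was -0.92, against 0.01 over all genes. Of the 15 members that passed in all groups, 3 were higher and 10 lower, with 2 in each direction at 2-fold, and their median was -0.56. Both comparisons use the same RFP libraries, so their values are given side by side and not as independent observations.

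ETS1-High and ETS1-Low differed in 18 members, of which 9 were higher in ETS1-High (29.9% of all genes) and 9 lower (29.3%), a share close to the background in either direction. At 2-fold or more, 6 were higher (6.05% of all genes) and 3 lower (3.69%). Among the 15 members that passed in all groups, 5 were higher and 6 lower, 2 and 0 of them by at least 2-fold, and the median was 0.05. Read against the shared RFP libraries, MMP17 and TIMP3 were called higher in both, MMP2 and TIMP2 were lower in ETS1-Low and higher in ETS1-High, and ADAMTS1 and MMP1 were higher in ETS1-Low and lower in ETS1-High. MMP10 was higher in ETS1-Low alone by this threshold, MMP23B, MMP25 and MMP28 lower in ETS1-Low alone, MMP14 higher in ETS1-High alone and TIMP1 lower in ETS1-High alone.

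**Figure D2:**
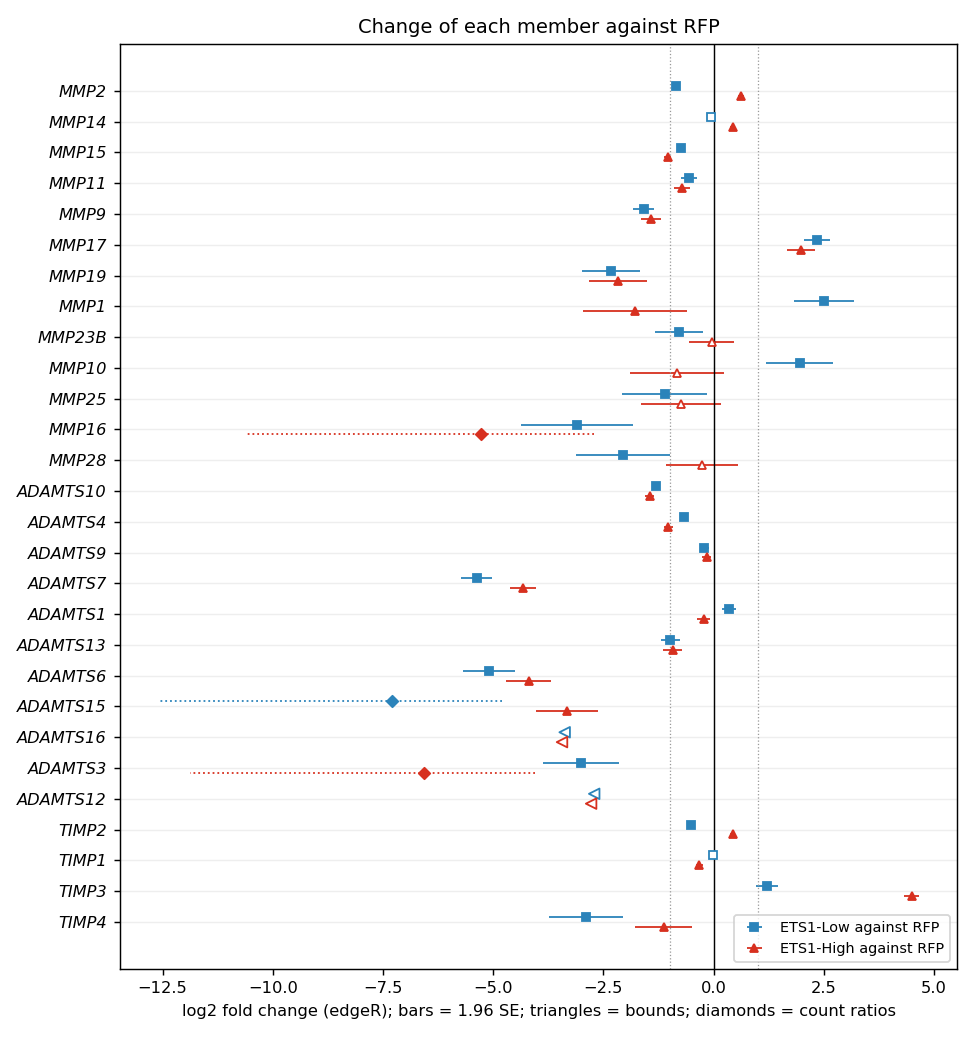
Log2 fold change of each tested member against RFP in ETS1-Low (squares) and ETS1-High (triangles) from the edgeR fit, with bars for the 95% interval of the fit, filled symbols for called changes, open left-pointing triangles for the bounds of ADAMTS12 and ADAMTS16, and diamonds with dotted bars for the count ratios and counting intervals of ADAMTS15, ADAMTS3 and MMP16 where a group held 1 count. TIMP3 in ETS1-High stands farthest to the right at 4.49, and all ADAMTS symbols other than ADAMTS1 in ETS1-Low lie left of 0.

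TIMP3, the inhibitor that is bound to the matrix and also acts on ADAM and ADAMTS enzymes, rose more in ETS1-High than any other tested member did. It had 0.998, 1.09 and 1.33 CPM in RFP, 2.62, 2.56 and 2.73 in ETS1-Low and 25.8, 24.9 and 26.3 in ETS1-High. The groups did not overlap and stood in the order of their ETS1 level. Against RFP its log2 fold change was 4.49 for ETS1-High (SE 0.09, adjusted p = 1.49e-40) and 1.21 for ETS1-Low (SE 0.13, adjusted p = 5.21e-12), and it was 3.28 between the ETS1 groups (SE 0.08, adjusted p = 5.34e-36). TIMP3 (chr22:32801705-32863041, plus strand, GRCh38) lies inside SYN3, a synapsin gene on the opposite strand, which had at most 16 counts in any library against 1016 to 1175 for TIMP3 in ETS1-High. Genes with at least 1 CPM within 10 Mb of TIMP3 changed by a median of 0.27 (ETS1-High) and 0.29 (ETS1-Low) on the log2 scale, each against RFP.

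TIMP2, a secreted inhibitor that also bridges MMP14 and the MMP2 precursor during activation, moved in opposite directions in the ETS1 groups. Its level was 88.3, 91.3 and 94.3 CPM in RFP, 64.1, 63.9 and 63.7 in ETS1-Low and 124, 126 and 119 in ETS1-High, with no overlap between groups. It fell by 0.51 on the log2 scale in ETS1-Low (SE 0.03, adjusted p = 2.43e-19) and rose by 0.43 in ETS1-High (SE 0.03, adjusted p = 2.68e-17), and the ETS1 groups differed by 0.95 (SE 0.03, adjusted p = 8.44e-30). Its exons overlap those of CEP295NL on the same strand, so reads there could be divided between these genes.

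TIMP1, a broadly acting secreted inhibitor, had 70.0, 71.2 and 71.4 CPM in RFP and 70.1, 68.3 and 72.2 in ETS1-Low, and these ranges overlapped. The log2 difference between them was -0.01 (SE 0.04, adjusted p = 0.725). In ETS1-High it had 55.3, 60.2 and 54.1 CPM, below every other library, and the log2 fold change was -0.33 against RFP (SE 0.04, adjusted p = 2.18e-11) and -0.31 against ETS1-Low (SE 0.04, adjusted p = 2.19e-10). With the deposited FPKM values TIMP1 was also called lower in ETS1-Low, by -0.16 (limma, adjusted p = 0.0016, pseudocount 1). The median over all genes was itself -0.071 with these FPKM values, against 0.01 in the fit reported.

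TIMP4, the fourth inhibitor, was scarce, with 33, 31 and 34 counts in RFP, 3, 7 and 1 in ETS1-Low and 9, 14 and 17 in ETS1-High. The groups were separate, with ETS1-Low lowest. It fell by 2.90 on the log2 scale in ETS1-Low (SE 0.43, adjusted p = 3.74e-08) and by 1.13 in ETS1-High (SE 0.33, adjusted p = 0.00225), and the ETS1 groups differed by 1.77, with ETS1-High above (SE 0.49, adjusted p = 0.00164). Like TIMP3, it lies inside a synapsin gene on the opposite strand, SYN2, which had at most 5 counts per library.

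**Figure D3:**
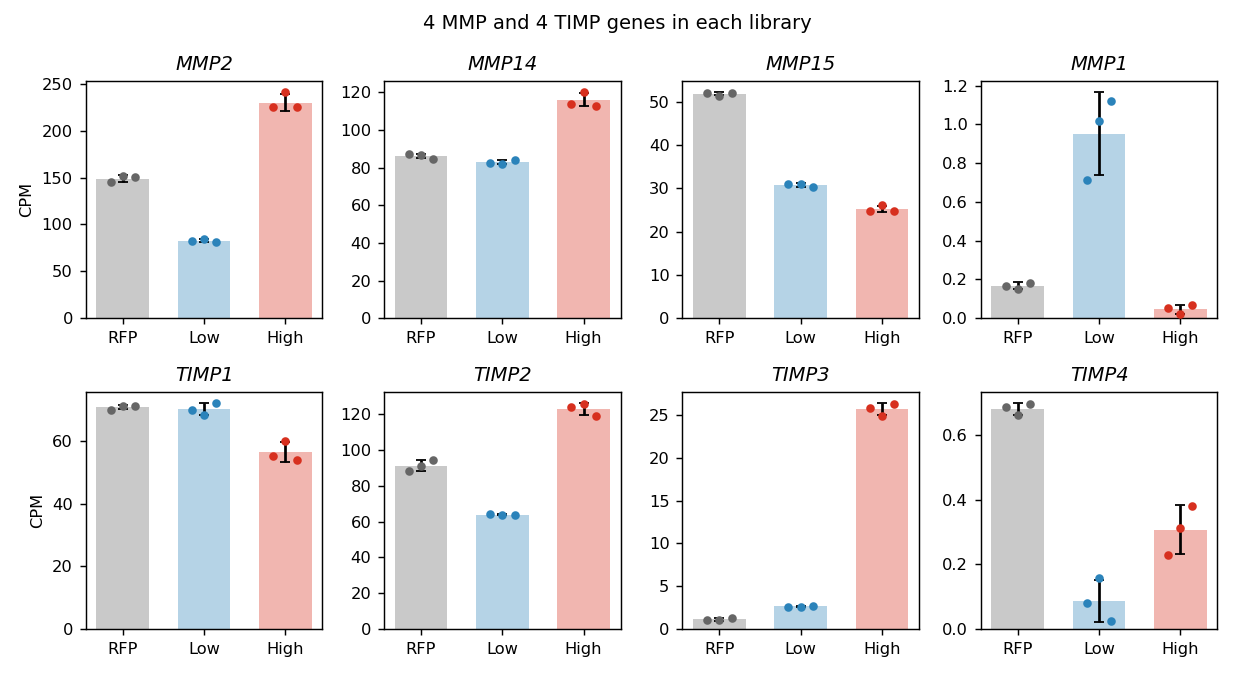
CPM of MMP2, MMP14, MMP15, MMP1 and the TIMP genes TIMP1 to TIMP4 in each library, one panel per gene with its own linear axis from 0, points for the 3 libraries of RFP, ETS1-Low (Low) and ETS1-High (High), bars for the group means and error bars for the SD. MMP2 and TIMP2 dip in ETS1-Low and peak in ETS1-High, whereas MMP1 peaks in ETS1-Low.

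MMP2 degrades gelatin and type IV collagen and is activated at the cell surface by MMP14, a membrane-anchored collagenase. MMP2 had 145, 152 and 151 CPM in RFP, 82.5, 84.3 and 81.5 in ETS1-Low and 225, 241 and 225 in ETS1-High. As for TIMP2, ETS1-Low was lowest and ETS1-High highest, without overlap. The log2 fold change was -0.85 in ETS1-Low (SE 0.03, adjusted p = 1.38e-28) and 0.62 in ETS1-High (SE 0.03, adjusted p = 5.7e-24) against RFP, and 1.48 between the ETS1 groups (SE 0.03, adjusted p = 2.68e-38). MMP2 (chr16:55389700-55506691) shares exon sequence with an unnamed gene on the same strand, and its expected count was not whole in 8 of 9 libraries.

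MMP14 had 87.0, 86.7 and 84.7 CPM in RFP, 82.6, 81.7 and 83.9 in ETS1-Low and 114, 120 and 113 in ETS1-High. ETS1-High stood above all other libraries, by 0.43 on the log2 scale over RFP (SE 0.03, adjusted p = 2.93e-17) and 0.48 over ETS1-Low (SE 0.03, adjusted p = 1.15e-18). ETS1-Low differed from RFP by -0.06, which was not called (SE 0.03, adjusted p = 0.105), but it was called lower with other scalings, among them upper-quartile factors (-0.11, edgeR, adjusted p = 0.00226). With upper-quartile factors the median over all genes was -0.039, against 0.01 in the fit reported. MMP15, another membrane-anchored MMP, had 52.2, 51.5 and 52.0 CPM in RFP, 31.0, 31.1 and 30.3 in ETS1-Low and 24.8, 26.1 and 24.9 in ETS1-High, in descending order with no overlap. It fell by 1.04 in ETS1-High (SE 0.04, adjusted p = 1.02e-28) and by 0.75 in ETS1-Low (SE 0.04, adjusted p = 3.25e-23).

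MMP17, which is held at the membrane by a GPI anchor, was the MMP that rose in both ETS1 groups. It had 0.769, 0.683 and 0.901 CPM in RFP, 3.81, 4.22 and 3.96 in ETS1-Low and 3.17, 3.05 and 3.11 in ETS1-High. Every ETS1 library was above every RFP library. The log2 fold change was 2.34 in ETS1-Low (SE 0.15, adjusted p = 3.03e-19) and 1.98 in ETS1-High (SE 0.16, adjusted p = 4.1e-16), and the ETS1 groups differed by -0.36 (SE 0.13, adjusted p = 0.012), a difference that was -0.32 and no longer called without ETS1-Low replicate 2 (edgeR, adjusted p = 0.0622). MMP25, the other GPI-anchored MMP, had 13, 18 and 12 counts in RFP, 5, 7 and 5 in ETS1-Low and 4, 16 and 3 in ETS1-High. In ETS1-High 1 library was in the RFP range and 2 were below it. The ETS1-Low difference was -1.11 (SE 0.49, adjusted p = 0.0372) and lost its call without any single ETS1-Low library (edgeR, adjusted p between 0.0625 and 0.0986) and without RFP replicate 1 or 2 (edgeR, adjusted p = 0.0505 and 0.149). The ETS1-High difference was -0.74 and not called (SE 0.46, adjusted p = 0.139), and -1.80 and called without ETS1-High replicate 2 (edgeR, adjusted p = 0.00568).

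MMP9, the second secreted gelatinase, had 5.86, 4.95 and 5.51 CPM in RFP, 1.72, 1.78 and 1.90 in ETS1-Low and 1.95, 2.02 and 2.13 in ETS1-High. Both ETS1 groups lay well under RFP. It fell by 1.59 in ETS1-Low (SE 0.12, adjusted p = 1.5e-16) and by 1.42 in ETS1-High (SE 0.12, adjusted p = 3.74e-15), while the ETS1 groups differed by 0.18, with an interval from -0.10 to 0.45 (adjusted p = 0.29). MMP11, or stromelysin 3, which is activated inside the cell by furin, had 8.13 ± 0.130 CPM in RFP, 5.54 ± 0.420 in ETS1-Low and 4.91 ± 0.221 in ETS1-High, and was called lower in both ETS1 groups, by -0.56 and -0.72.

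Interstitial collagenase MMP1 and stromelysin 2, MMP10, are neighbours in the MMP cluster of chromosome 11, and both were highest in ETS1-Low. Both passed the filter through ETS1-Low only, which makes a higher value there part of how they entered the test. MMP1 had 8, 7 and 9 counts in RFP, 27, 46 and 46 in ETS1-Low and 2, 1 and 3 in ETS1-High. The 3 groups did not overlap. MMP1 rose by 2.50 on the log2 scale in ETS1-Low (SE 0.35, adjusted p = 9.04e-09). With 6 counts in all, its ETS1-High level is given as a count ratio scaled to library size: it was 3.59-fold below RFP (95% counting interval 1.43 to 10.7, edgeR adjusted p = 0.00679) and 20.7-fold below ETS1-Low (9.22 to 57.5, edgeR adjusted p = 9.08e-12). Counting intervals here cover counting error only, since reads amplified by PCR without molecular identifiers are not independent molecules.

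MMP10 had 9, 12 and 5 counts in RFP, 23, 33 and 32 in ETS1-Low and 3, 9 and 1 in ETS1-High. ETS1-Low stood above all other libraries, while ETS1-High overlapped RFP. It was 1.95 higher on the log2 scale in ETS1-Low than in RFP (SE 0.39, adjusted p = 1.29e-05) and the ETS1 groups differed by -2.78, with ETS1-High below (SE 0.44, adjusted p = 3.29e-07). Against RFP, ETS1-High had -0.83 (SE 0.54, adjusted p = 0.163), which became -1.86 and was called without ETS1-High replicate 2 (edgeR, adjusted p = 0.0177). Both genes lie within WTAPP1, a pseudogene on the opposite strand, and MMP1 shares exon sequence with it.

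The cluster spans chr11:102520508-102955732 and holds 9 members, of which MMP1 and MMP10 were tested. MMP3, stromelysin 1, lies 37.6 kb from MMP1 and had 5, 4 and 8 counts in RFP, 0, 0 and 1 in ETS1-Low and 0 in every ETS1-High library. Unlike MMP1 and MMP10, it was thus not highest in ETS1-Low, at counts too low for a test. MMP8 reached at most 2 counts, MMP12 and MMP13 at most 1, and MMP7, MMP20 and MMP27 had 0 counts in every library. Where a gene had 0 counts, 3 counts per library is the level that could have been missed.

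The remaining MMP genes that were tested reached at most 1.15 CPM in any library. MMP19, a widely expressed secreted MMP, had 35, 54 and 53 counts in RFP, 11, 7 and 6 in ETS1-Low and 10, 10 and 8 in ETS1-High. It fell by 2.33 in ETS1-Low (SE 0.34, adjusted p = 3.41e-08) and by 2.17 in ETS1-High (SE 0.33, adjusted p = 8.53e-08). MMP16, a membrane-anchored MMP, had 18, 11 and 14 counts in RFP, 0, 1 and 3 in ETS1-Low and 0, 0 and 1 in ETS1-High. Its count ratio was 9.25-fold below RFP in ETS1-Low (95% counting interval 3.36 to 35.5, edgeR adjusted p = 3.7e-05) and 38.6-fold in ETS1-High (6.56 to 1560, edgeR adjusted p = 1.05e-06). In both genes every RFP library was above every ETS1 library.

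MMP28, or epilysin, had 12, 11 and 17 counts in RFP, 2, 4 and 2 in ETS1-Low and 7, 8 and 15 in ETS1-High. ETS1-Low was below both other groups, which overlapped. Its count ratio was 4.30-fold below RFP in ETS1-Low (1.99 to 10.6, edgeR adjusted p = 0.00067), and ETS1-High was 3.60-fold above ETS1-Low (1.61 to 9.08, edgeR adjusted p = 0.00536), a difference that lost its call without ETS1-High replicate 3 (log2 fold change 1.43, edgeR adjusted p = 0.0649). MMP23B, a membrane protein that is shed on activation, had 0.778 ± 0.128 CPM in RFP, 0.447 ± 0.112 in ETS1-Low and 0.758 ± 0.0957 in ETS1-High. The ETS1-Low difference was -0.78 (SE 0.28, adjusted p = 0.0105), -0.60 and not called without ETS1-Low replicate 1, and -0.66 and not called without RFP replicate 1 (edgeR, adjusted p = 0.07 and 0.0606). MMP23A, a near-identical copy 64.7 kb away, reached 4 counts, so the division of reads between these copies is uncertain.

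In the ADAMTS family, 11 of 11 tested genes were lower in ETS1-High, where 37.2% of all genes were, and 10 of 11 lower in ETS1-Low (36.2% of all genes), while ADAMTS1 was called higher there. Their median was -3.33 on the log2 scale for ETS1-High and -3.02 for ETS1-Low, or -2.78 and -2.71 with ADAMTS12 and ADAMTS16 at their bounds, against -0.01 and 0.01 over all genes. Among them 5 (ADAMTS3, ADAMTS6, ADAMTS12, ADAMTS15 and ADAMTS16) passed the filter through RFP only, which makes a lower value in the other groups part of how they entered the test. The 6 others were all called lower in ETS1-High, with a median of -0.98, and 5 of them in ETS1-Low, with a median over the 6 of -0.83. ADAMTS genes held 18.4% ± 0.529 of the members' summed FPKM in RFP, 11.9% ± 0.404 in ETS1-Low and 8.13% ± 0.675 in ETS1-High. The ADAMTS sum itself was 54.9 ± 2.57, 24.7 ± 0.802 and 21.5 ± 1.63 FPKM, of which ADAMTS10 alone made 30.5, 11.3 and 9.75.

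ADAMTS7, which cleaves cartilage oligomeric matrix protein, had the largest fall in both ETS1 groups among members with at least 100 counts in every RFP library. It had 11.2, 11.9 and 11.7 CPM in RFP, 0.291, 0.0889 and 0.464 in ETS1-Low and 0.584, 0.645 and 0.493 in ETS1-High. All ETS1 libraries lay far below RFP, and ETS1-Low below ETS1-High. The log2 fold change was -5.38 in ETS1-Low (SE 0.18, adjusted p = 2.17e-25) and -4.33 in ETS1-High (SE 0.15, adjusted p = 1.98e-24). The ETS1 groups differed by 1.05 (SE 0.31, adjusted p = 0.00329), or by 0.59, not called, without ETS1-Low replicate 2 (edgeR, adjusted p = 0.0894). Genes within 10 Mb of ADAMTS7 (chr15:78759206-78811464, minus strand) had a median of 0.26 in ETS1-Low and -0.12 in ETS1-High. Its expected count was not whole in 5 of 9 libraries, so some reads were shared with other genes.

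ADAMTS12, a second protease of cartilage oligomeric matrix protein, had 14, 25 and 30 counts in RFP and 0 in all libraries of the ETS1 groups. It was at least 6.56-fold lower in ETS1-Low and at least 6.85-fold lower in ETS1-High, with 3 counts per library as the floor (edgeR adjusted p = 2.81e-09 and 2e-09). ADAMTS16, whose substrates are less well known, had 38, 38 and 33 counts in RFP and likewise 0 in all ETS1 libraries. It was at least 10.4-fold lower in ETS1-Low and at least 10.8-fold lower in ETS1-High (edgeR adjusted p = 3.63e-12 and 2.48e-12). No other tested member was at 0 in all libraries of a group.

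ADAMTS6 and ADAMTS10 are related enzymes with roles in fibrillin microfibrils. ADAMTS6 had 123, 146 and 144 counts in RFP, 3, 5 and 2 in ETS1-Low and 6, 9 and 5 in ETS1-High. Its count ratio was 35.5-fold below RFP in ETS1-Low (95% counting interval 19.1 to 74.7, edgeR adjusted p = 5.05e-21), and its log2 fold change was -4.19 in ETS1-High (SE 0.26, adjusted p = 7.43e-20). ADAMTS10 had 2042, 2015 and 1945 counts in RFP, 588, 781 and 724 in ETS1-Low and 592, 699 and 683 in ETS1-High, and it fell by 1.31 (SE 0.05, adjusted p = 6.86e-29) and 1.45 (SE 0.05, adjusted p = 9.93e-31). Genes within 10 Mb of ADAMTS10 (chr19:8580240-8610735) had medians of 0.29 and 0.26 in the same comparisons, on the other side of 0.

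ADAMTS3 removes the amino-terminal propeptide of procollagens and processes VEGF-C. It had 32, 45 and 29 counts in RFP, 1, 5 and 5 in ETS1-Low and 0, 0 and 1 in ETS1-High. It fell by 3.02 in ETS1-Low (SE 0.44, adjusted p = 2.79e-08), and its count ratio was 95.1-fold below RFP in ETS1-High (95% counting interval 16.7 to 3790, edgeR adjusted p = 1.03e-11). ETS1-High was 11.5-fold below ETS1-Low (1.67 to 494, edgeR adjusted p = 0.00833). The other procollagen proteinases were hardly detected: ADAMTS2 reached 1 count and ADAMTS14 reached 12.

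The proteoglycan-cleaving enzymes had the widest mix of levels. ADAMTS15 had 72, 53 and 58 counts in RFP, 0, 0 and 1 in ETS1-Low and 4, 3 and 9 in ETS1-High, in separate ranges. Its count ratio was 157-fold below RFP in ETS1-Low (95% counting interval 27.9 to 6250, edgeR adjusted p = 3.2e-15), and its log2 fold change was -3.33 in ETS1-High (SE 0.36, adjusted p = 1.19e-11). ETS1-High was 15.3-fold above ETS1-Low (2.38 to 644, edgeR adjusted p = 0.00094). ADAMTS8, 20036 bases from ADAMTS15 on chromosome 11 and on the opposite strand, did not pass the filter, and had 17, 6 and 19 counts in RFP, 0 in ETS1-Low and 1, 0 and 0 in ETS1-High, so both neighbours were highest in RFP.

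ADAMTS4, or aggrecanase 1, had 34.4, 38.3 and 36.2 CPM in RFP, 22.6, 23.0 and 22.9 in ETS1-Low and 18.4, 17.4 and 17.7 in ETS1-High. It fell by 1.03 in ETS1-High (SE 0.05, adjusted p = 4.05e-25) and by 0.67 in ETS1-Low (SE 0.05, adjusted p = 3.57e-18), in the order of the ETS1 level. ADAMTS9, which cleaves versican and aggrecan, changed least: 27.6 ± 1.72 CPM in RFP, 23.9 ± 0.361 in ETS1-Low and 24.8 ± 1.63 in ETS1-High, with log2 fold changes of -0.21 and -0.16 that were called, beside medians of -0.17 and -0.19 over genes within 10 Mb. ADAMTS1 had 7.69 ± 0.277 CPM in RFP, 9.82 ± 0.493 in ETS1-Low and 6.60 ± 0.800 in ETS1-High. It was higher in ETS1-Low by 0.35 (SE 0.08, adjusted p = 1e-04) and differed by -0.23 in ETS1-High (SE 0.08, adjusted p = 0.0136), and the latter call was lost without ETS1-High replicate 2 or 3 (edgeR, adjusted p = 0.113 and 0.0737). With the deposited FPKM values neither was called: the ETS1-Low value was 0.20 at pseudocount 1 and 0.28 at 0.1 (limma, adjusted p = 0.197 and 0.335). ADAMTS5, 72.5 kb from ADAMTS1 on chromosome 21, reached 1 count.

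ADAMTS13, which cleaves von Willebrand factor, had 6.38 ± 0.514 CPM in RFP, 3.20 ± 0.619 in ETS1-Low and 3.34 ± 0.225 in ETS1-High. It was lower by -0.98 (SE 0.11, adjusted p = 4.08e-11) and -0.93 (SE 0.11, adjusted p = 1.37e-10). Genes within 10 Mb had medians of -0.53 and -0.12, and in ETS1-Low 8.95% of them were higher than in RFP. Its substrate VWF had at most 10 counts in RFP and 0 in the ETS1 groups.

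**Figure D4:**
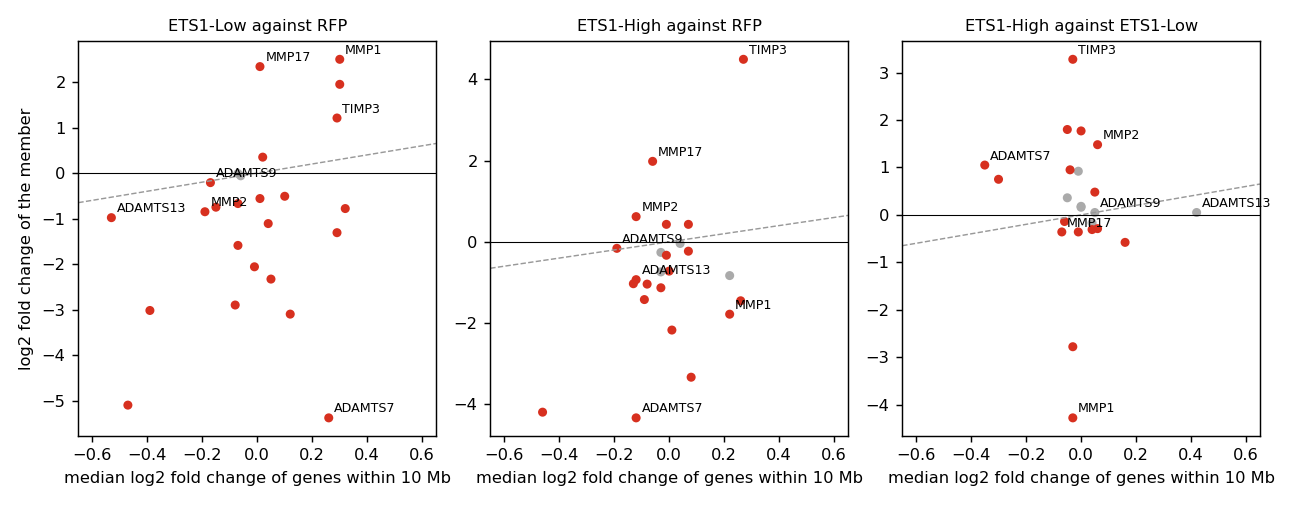
Log2 fold change of each tested member (vertical) against the median of genes with at least 1 CPM within 10 Mb on the same chromosome (horizontal), one panel per comparison, with different vertical scales, red for called members and grey for others, with equality dashed; members with at most 3 counts in a group are left out. Neighbour medians lie between -0.53 and 0.42, while members range from -5.38 to 4.49.

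Of the 19 members that did not pass the filter, 5 had 0 counts in every library (ADAMTS18, MMP20, MMP26, MMP27 and MMP7). Beside those named above, ADAMTS17 reached 14 counts, MMP24 reached 12, MMP21 reached 7, ADAMTS20 reached 5, and ADAMTS19 reached 1. MMP21 was highest in ETS1-High, with 7, 4 and 3 counts there, 1, 0 and 1 in RFP and 0, 2 and 0 in ETS1-Low, and its exons overlap those of EDRF1 on the opposite strand.

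Summed over each family, the ratio of MMP to TIMP message in FPKM was 0.769 to 0.809 in RFP, 0.591 to 0.641 in ETS1-Low and 1.02 to 1.03 in ETS1-High, without overlap between groups. These sums rest mostly on MMP2, MMP14, TIMP1 and TIMP2 and do not describe the other members. Of 13 tested MMP genes, 3 were called higher and 6 lower in ETS1-High than in RFP, where 37.0% and 37.2% of all genes were. The ratio of MMP2 to TIMP2 alone was 1.81 to 1.92 in RFP, 1.55 to 1.78 in ETS1-Low and 2.04 to 2.11 in ETS1-High. The ratio of MMP14 to TIMP2 was instead highest in ETS1-Low, with 0.978 to 1.08 in RFP, 1.34 to 1.37 in ETS1-Low and 0.951 to 1.03 in ETS1-High. The members' summed FPKM was 298 ± 5.69 in RFP, 209 ± 3.21 in ETS1-Low and 265 ± 8.02 in ETS1-High. With 3 libraries against 3, no exact permutation test of these sums can give a p-value under 0.05, and none was run.

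**Figure D5:**
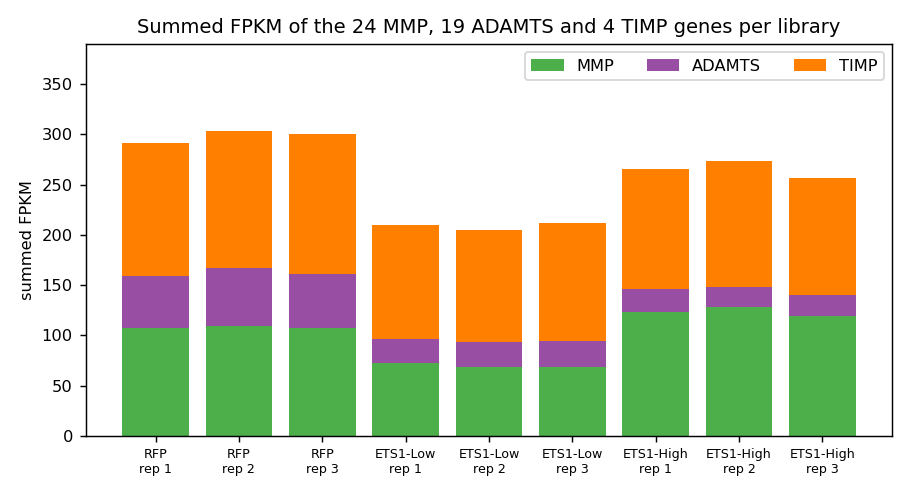
Summed FPKM of the MMP, ADAMTS and TIMP members in each of the 9 libraries as stacked bars from 0. The ADAMTS segment is largest in the RFP libraries, and the MMP segment exceeds the TIMP segment in the ETS1-High libraries alone.

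Around the members, 6 lists of pathway genes held 89 symbols, of which 71 were tested, and 25 of these were higher (35.2%, against 37.0% of all genes) and 41 lower (57.7%, against 37.2%) in ETS1-High than in RFP. For ETS1-Low the counts against RFP were 23 higher (32.4%, against 37.9%) and 36 lower (50.7%, against 36.2%). Between the ETS1 groups 24 were higher (33.8%, against 29.9%) and 30 lower (42.3%, against 29.3%) in ETS1-High. ETS1, the added gene, is counted among the higher genes in each of these comparisons. Of 20 tested inhibitors, activators and clearance genes, 7 were higher and 13 lower in ETS1-High, where 37.0% and 37.2% of all genes were, and 7 higher and 11 lower in ETS1-Low, where 37.9% and 36.2% were. TNFAIP6, whose protein binds hyaluronan and dampens protease activity, went from 0.0830 ± 0.0349 CPM in RFP to 42.9 ± 0.750 in ETS1-Low and 35.8 ± 0.391 in ETS1-High (edgeR adjusted p = 5.29e-50 and 6.34e-49). A2M, the circulating protease trap alpha-2-macroglobulin, fell from 5.59 ± 0.395 CPM to 0.194 ± 0.0643 and 0.0318 ± 0.0164. The proprotein convertases, which activate precursors of several metalloproteinases, moved apart: PCSK5 fell from 8.10 ± 0.400 CPM to 0.0487 ± 0.00421 and 0.0839 ± 0.0309, and PCSK6 rose from 0.708 ± 0.141 to 14.3 ± 0.244 and 4.84 ± 0.199. CD44, a hyaluronan receptor that docks MMP9 at the cell surface, had 2.07 ± 0.233 CPM in RFP, 2.50 ± 0.104 in ETS1-Low and 17.0 ± 1.81 in ETS1-High.

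Of 10 tested ADAM genes, relatives anchored in the membrane, 0 were higher and 8 lower in ETS1-High (37.0% and 37.2% of all genes), and 2 were higher and 5 lower in ETS1-Low (37.9% and 36.2%). ADAM19 had 19.2 ± 0.588 CPM in RFP, 1.15 ± 0.175 in ETS1-Low and 5.87 ± 0.164 in ETS1-High, and ADAM23 fell from 8.13 ± 0.147 to 0.227 ± 0.0367 and 0.412 ± 0.143. Of the ADAMTS-like genes, which lack the protease domain, 6 were tested, and 4 were higher (66.7%, against 37.0% of all genes) and 2 lower (33.3%, against 37.2%) in ETS1-High. THSD4, an ADAMTS-like gene that acts in fibrillin assembly, rose from 13.6 ± 0.421 CPM to 83.8 ± 1.74 in ETS1-Low and 56.1 ± 1.04 in ETS1-High, while ADAMTSL3 fell from 2.87 ± 0.0900 to 0.0162 ± 0.0142 and 0.161 ± 0.0531. Among the astacin genes, TLL1 rose from 0.445 ± 0.0671 to 3.34 ± 0.261 and 2.01 ± 0.270, and the related procollagen proteinase BMP1 was called lower in both.

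Of 16 tested substrate genes, 7 were higher and 7 lower in ETS1-High (43.8% each way, against 37.0% and 37.2% of all genes), and 2 higher (12.5%, against 37.9%) and 11 lower (68.8%, against 36.2%) in ETS1-Low. VCAN, which encodes versican, the substrate of ADAMTS1, ADAMTS4, ADAMTS9 and ADAMTS15, had 115 ± 1.47 CPM in RFP, 0.0258 ± 0.0265 in ETS1-Low and 0.0372 ± 0.0340 in ETS1-High. BCAN, for the brain proteoglycan brevican, and FBN2, for fibrillin 2, fell likewise, from 24.1 ± 0.480 to 0.641 ± 0.0983 and 0.460 ± 0.0709 CPM and from 27.1 ± 0.860 to 0.404 ± 0.0520 and 0.759 ± 0.0567. COL5A1, for a fibrillar collagen, dipped in ETS1-Low, with 211 ± 7.43 CPM in RFP, 15.2 ± 0.921 in ETS1-Low and 126 ± 7.45 in ETS1-High. BGN dipped there too, with 6.63 ± 0.905, 0.603 ± 0.0884 and 9.86 ± 0.994 CPM, but is among the 7 higher in ETS1-High than in RFP. So are FBN1 and COL3A1, added after their values were seen. FBN1, for fibrillin 1, had 20.5 ± 0.409, 16.0 ± 1.70 and 49.8 ± 3.79 CPM. COL3A1 had 176 ± 8.34, 342 ± 1.37 and 450 ± 16.9 CPM.

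Of 17 tested AP-1 and ETS factors and their partners, 6 were higher (35.3%, against 37.0% of all genes) and 10 lower (58.8%, against 37.2%) in ETS1-High, and 8 higher (47.1%, against 37.9%) and 5 lower (29.4%, against 36.2%) in ETS1-Low. The 17 include ETS1, the added gene, whose call as higher in both groups was set by the design. ETV4, an ETS factor that acts on MMP promoters, had 0.537 ± 0.131 CPM in RFP, 2.47 ± 0.0224 in ETS1-Low and 0.149 ± 0.0253 in ETS1-High. FOSL1, an AP-1 subunit, was also highest in ETS1-Low, with 4.90 ± 0.0996, 13.7 ± 1.28 and 7.42 ± 0.346 CPM. RUNX2, a bone regulator that acts on MMP13, fell from 14.4 ± 0.332 to 9.25 ± 0.481 and 5.07 ± 0.327. Whether any of these factors acted on the members in these cells was not tested.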

How the data were processed

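Gene-level RNA-seq values of 9 TC-32 libraries were used, grouped by their titles (RFP, ETS1-Low and ETS1-High; L in a column name was taken as Low, and H as High). The authors deposited expected counts and FPKM values per gene, both from RSEM per the file headers. The submitters' processing notes name cutadapt 4.4, STAR 2.7.3, featureCounts of Subread 2.0.3, limma 3.38.3 and GRCh38, without their roles. The library kit was stranded per the labels' protocols; use of strand in counting is not given in the sources used here, so reads of overlapping antisense genes may not be separated. Expected counts divide reads that fit several genes, and 9.00% to 10.3% of values per library were not whole.

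Expected counts were rounded and fitted by quasi-likelihood (robust glmQLFit, glmQLFTest; edgeR 4.0.16, R 4.3.3; TMM scaling, filterByExpr by group, all 9 libraries, group as the only factor), which left 17235 genes. P-values were adjusted by Benjamini-Hochberg over all of them, and a gene was called under 0.05. SE is the log2 fold change divided by the root of F, and intervals of a difference are at 95%. CPM uses TMM library sizes. FPKM served for comparing genes and, as log2(FPKM + 1) or log2(FPKM + 0.1) in limma 3.58.1, as an alternative. DESeq2 1.42.0, other scalings and filters, and leaving out each library were further alternatives. The script was tested on simulated data. A group at 0 is given as a bound from 3 counts per library, and small totals as a ratio of summed counts with an exact 95% interval. Replicate pairs differed by more than sampling noise (chi-square per gene 2.66 to 5.19). Each library was counted once, but this spread cannot show that the libraries were separate cultures.

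Positions are from GENCODE v44 and promoters from RefSeq (GRCh38.p14). Every tested member is named, members called at 2-fold in any comparison have their value in every library, and from each list up to 2 genes per comparison with the largest change and at least 100 counts on average were eligible. Members, lists and rules were chosen with earlier results of these data known.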

Additional observations from a re-analysis of the deposited data

Results flagged for a closer look

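The effect against RFP differed between the ETS1 groups in 18 members, by the direct test of ETS1-High against ETS1-Low (edgeR, adjusted p under 0.05), which is the test of that difference. In this test 29.9% of all genes were called higher and 29.3% lower. Log2 fold changes were 3.28 for TIMP3, 1.77 for TIMP4, 0.95 for TIMP2 and -0.31 for TIMP1. Among MMP genes they were 1.48 for MMP2, 0.48 for MMP14, 0.75 for MMP23B and 1.80 for MMP28, and, in the other direction, -4.28 for MMP1, -2.78 for MMP10, -0.36 for MMP17 and -0.29 for MMP15. Among ADAMTS genes they were 3.54 for ADAMTS15 and 1.05 for ADAMTS7, against -3.11 for ADAMTS3, -0.58 for ADAMTS1, -0.36 for ADAMTS4 and -0.14 for ADAMTS10. Without ETS1-High replicate 2 or ETS1-Low replicate 1 the MMP23B difference was not called (0.64 and 0.57, edgeR adjusted p = 0.0862 and 0.112), and that of ADAMTS10 was not called in 4 of the fits that leave out a library (edgeR adjusted p between 0.0511 and 0.137). The values of ADAMTS15 and ADAMTS3 are fitted values that depend on the prior count, since a group held 1 count in all.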

How the results depend on the processing

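No called result reversed under the alternatives run. Of the single-member comparisons, 1365 kept direction and call, 34 lost the call, 11 gained it and 12 without a call moved. Members called were 14 (ETS1-High against RFP), 14 (ETS1-Low against RFP) and 11 (ETS1-High against ETS1-Low) with at least 10 counts in every library, and 14, 14 and 9 with FPKM at pseudocount 1, which test fewer genes. Under both settings 35.7% of the calls in ETS1-High against RFP were higher, against 20.8% in the fit reported. Over all genes, the fit reported had 6372 called higher and 6413 called lower in this comparison. Shares over all genes under the alternatives are not given here, so the counts of members called under them have no background beside them. Members called at 2-fold were 6, 5 and 2 with at least 10 counts, and 5, 3 and 2 with FPKM at pseudocount 1. In ETS1-High against ETS1-Low 5 were called at 2-fold with FPKM at pseudocount 0.1, and 5 with only the 2 groups compared; the cause was not tested. Pathway genes called with FPKM at pseudocount 1 were 43 and 39 against RFP. Leaving out each library gave 24 to 26, 24 to 27 and 15 to 18 members called, 16 to 19, 17 to 18 and 8 to 9 at 2-fold, and 61 to 66, 55 to 60 and 50 to 54 pathway genes.

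Replicate numbers did not pair the libraries: deviations of same-numbered libraries correlated between -0.029 and 0.028 over 9 pairs. A fit with the replicate number as a block gave the same counts, 24, 26 and 18 members called, 16, 17 and 9 at 2-fold, and 66, 59 and 54 pathway genes. Depth limits members under about 10 counts per library.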

Other observations

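CLU, an extracellular chaperone, and FURIN, the convertase that activates MMP14 and MMP11, and the genes named after them were chosen after their values were seen. CLU fell from 643 ± 15.7 CPM in RFP to 101 ± 0.639 in ETS1-Low and 105 ± 2.48 in ETS1-High (SD, n = 3; edgeR adjusted p = 4.03e-51 and 6.58e-51). FURIN rose from 73.0 ± 0.295 CPM to 144 ± 3.41 and 142 ± 7.21 (edgeR adjusted p = 8.15e-31 and 1.99e-30). RECK, a membrane-anchored inhibitor of MMP14, MMP2 and MMP9, had 17.9 ± 0.397 CPM in RFP, 7.17 ± 0.292 in ETS1-Low and 14.2 ± 1.26 in ETS1-High. It was lowest in the group where MMP2 and TIMP2 were lowest, and a link was not tested. PLAU, the urokinase that feeds plasmin to MMP activation, fell from 7.36 ± 0.397 CPM to 4.10 ± 0.148 and 1.48 ± 0.264, in the order of the ETS1 level. THBS1 and THBS2, thrombospondins that carry MMP2 to its clearance receptor, were both highest in RFP, at 6.90 ± 0.997 and 1.73 ± 0.0821 CPM, and THBS2 had 0 counts in all ETS1-Low libraries.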
